A study of Capra hircus with 24 samples.

Results

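The epidermal growth factor (EGF) family was read through 9 genes in papilla cells of cashmere goats (Capra hircus). Members were picked by gene symbol: the ligands EREG, AREG, HBEGF, TGFA and NRG1, the receptors EGFR, ERBB2 and ERBB3, and ERRFI1, an inhibitor of the receptors. All 9 were among the 20326 genes listed, and 7 of them were tested, being among the 13049 genes with 3 or more libraries at a value of 1 or above. Dermal papilla cells form the mesenchymal core of the follicle bulb. Here they came either from secondary follicles, the source of fine cashmere, or from primary follicles, the source of guard hair. They were taken from males and females in October, labelled anagen (active hair growth), and in June, labelled early anagen. The 24 RNA libraries make 8 groups of 3: secondary and primary cells of October males, October females, June males and June females. Month and growth stage go together in this design and cannot be told apart. The sources used here give neither age nor breed, nor whether the cells were cultured.

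EGF family ligands are made as membrane-bound precursors, and metalloproteinases cut them free. EREG (epiregulin), AREG (amphiregulin), HBEGF (heparin-binding EGF-like growth factor) and TGFA (transforming growth factor alpha) bind EGFR, and EREG and HBEGF can also bind ERBB4, while NRG1 (neuregulin 1) binds ERBB3 and ERBB4. ERBB2 has no known ligand and acts as the partner of the other receptors. ERBB3 has very weak kinase activity of its own and depends on a partner. Receptor pairs signal through the ERK kinase cascade, among other routes, and ERRFI1 is one of the genes this signal induces, a feedback inhibitor that binds the kinase part of EGFR. In mouse skin, loss of TGFA or weakened EGFR gives wavy hair.

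Deposited values are normalised expression, and library totals ran from 959766 to 1045876. They are not counts, so the depth behind a value is unknown, and whether they are scaled by transcript length is not stated. Levels are therefore compared between groups within a gene, not between genes. The labels mark each group's libraries as biological replicates without naming separate animals or cultures. The p-values therefore measure the spread between libraries within groups, which may be partly technical. That spread is estimated for each gene over all 24 libraries, so the SE of a gene is the same in every comparison of 2 groups. Checked against the label of mesenchymal cells, all 7 listed fibroblast markers stood at 1 or more in every library. That does not check the papilla label. Of 15 papilla markers, 9 (primary October males) to 12 (primary June females) stood at 1 or more in every library of a group. CORIN and PROM1 did not exceed 0.34 and 0.7 in any library. EIF2S3, an X-linked gene chosen as a check after its values were seen, was 47.2 to 61.2 in the 12 male libraries and 78.3 to 104 in the 12 female ones. The papilla transcription factor SOX2 was 13.7 to 15.1 in secondary October males, 0 to 0.7 in the other 3 secondary groups and 10.6 to 17.9 in the 4 primary groups. Secondary October males and primary October males were also the closest pair of groups (mean r across genes 0.996). The labels were kept as given. Follicle type is compared within each sex. The October comparison in males, the month comparison in secondary males and the sex comparison in secondary October cells all rest on secondary October males. So does the change of the follicle contrast between the sexes in October and between the months in males. These results hold only if the label of that group is right, which was not tested. All differences are given as log2(value + 1), a scale on which changes of genes at low values come out too small. A gene is called higher or lower where its adjusted p (limma, Benjamini-Hochberg over all tested genes) is under 0.05.

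EREG was high in 1 group, secondary June males. Secondary June males had 35.58, 27.14 and 27.50, against 0.73, 0.46 and 0.35 in primary June males. Secondary June females had 2.93, 2.84 and 2.83, against 1.18, 1.28 and 1.02 in primary June females. In neither sex did the libraries of secondary and primary cells overlap in June. The ratio of the means was 58.6 in males and 2.47 in females. The ratio in males rests on primary values under 1, whose precision is not known. On the log2 scale the difference was 4.36 in males (SE 0.12, adjusted p = 9.35e-19) and 0.84 in females (SE 0.12, adjusted p = 3.24e-06), and it was larger in males by 3.52 (SE 0.17, adjusted p = 8.74e-14).

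The high EREG level of secondary June males was not seen in the libraries labelled secondary October males. SOX2 in those libraries, at 13.7 to 15.1, was within the range of primary cells, so the comparisons with them below rest on that label. Secondary October males had 0.55, 1.14 and 0.77, against 0.63, 0.37 and 0.54 in primary October males, and these groups overlapped (0.26, adjusted p = 0.141). Secondary October females had 0.55, 0.44 and 0.50, against 2.10, 2.51 and 1.94 in primary October females. Here the order of June was turned round, with EREG lower in secondary cells by a difference of -1.09 (SE 0.12, adjusted p = 1.06e-07). From month to month, secondary males stood at 0.0273 times their June mean (-4.10, adjusted p = 4.07e-18) and secondary females at 0.173 times theirs (-1.37, adjusted p = 1.67e-09). The October values behind these ratios, 0.44 to 1.14, were near the low end of the scale. Primary females rose by 0.56 (adjusted p = 0.000454), and primary males had the same mean in October as in June, 0.513 (interval of the log2 difference from -0.24 to 0.25). The contrast of secondary with primary cells moved between the months by -4.10 in males (adjusted p = 7.64e-15) and by -1.93 in females (adjusted p = 2.90e-09).

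Between the sexes, EREG was higher in males of secondary June cells, with a difference of 3.00 (SE 0.12, adjusted p = 4.16e-15). Males were lower in primary cells, by -0.52 in June (adjusted p = 0.00097) and -1.07 in October (adjusted p = 1.41e-07), and in secondary October cells the difference of 0.27 was not called (adjusted p = 0.072). That last one was called without secondary October male 1 (0.38, adjusted p = 0.0209) and with a pseudocount of 0.1 (0.58, adjusted p = 0.0399). Ordered by mean, EREG ran from secondary June males (30.1) over secondary June females (2.87), primary October females (2.18) and primary June females (1.16) to secondary October males (0.82), with primary June males, primary October males and secondary October females close together at 0.497 to 0.513. The first 3 of these groups did not overlap the group after them, and each of the others did.

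Summed leukocyte, endothelial and papilla markers also stood apart in the group with high EREG, and those of the other listed cell types did not. The summed value of 6 macrophage and other leukocyte markers was 34.5 to 41.3 in secondary June males and 10.7 to 25.3 in the other 7 groups, with the monocyte gene CD14 and the lysosomal gene CD68 making up most of it and the pan-leukocyte gene PTPRC at 0 in the 3 libraries. The 6 endothelial markers summed to 2.44 to 2.86, against 0.34 to 1.19 elsewhere. Only 1 of them was at 1 or more in all 3 libraries, and 1 was at 0 in all 3. Over all 24 libraries PECAM1 reached 2.08, while CDH5, KDR, CLDN5, VWF and TEK did not exceed 0.82. Keratinocyte and hair matrix markers, 14 genes, summed to 8.56 to 9.65, within the 5.23 to 354 of the other groups, with KRT5 at 0 to 0.05. Schwann cell markers (72.4 to 74.1, against 34.8 to 77.0) and contractile markers (10210 to 11450, against 10120 to 17740) also lay within. Melanocyte and fibroblast markers overlapped the other groups. The 15 papilla markers summed to 557 to 565, against 614 to 824 in the other groups. Their part in the EREG level was not tested, and in such bulk samples a change in the number of cells of a type and a change in RNA per cell cannot be told apart.

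**Figure D1:**
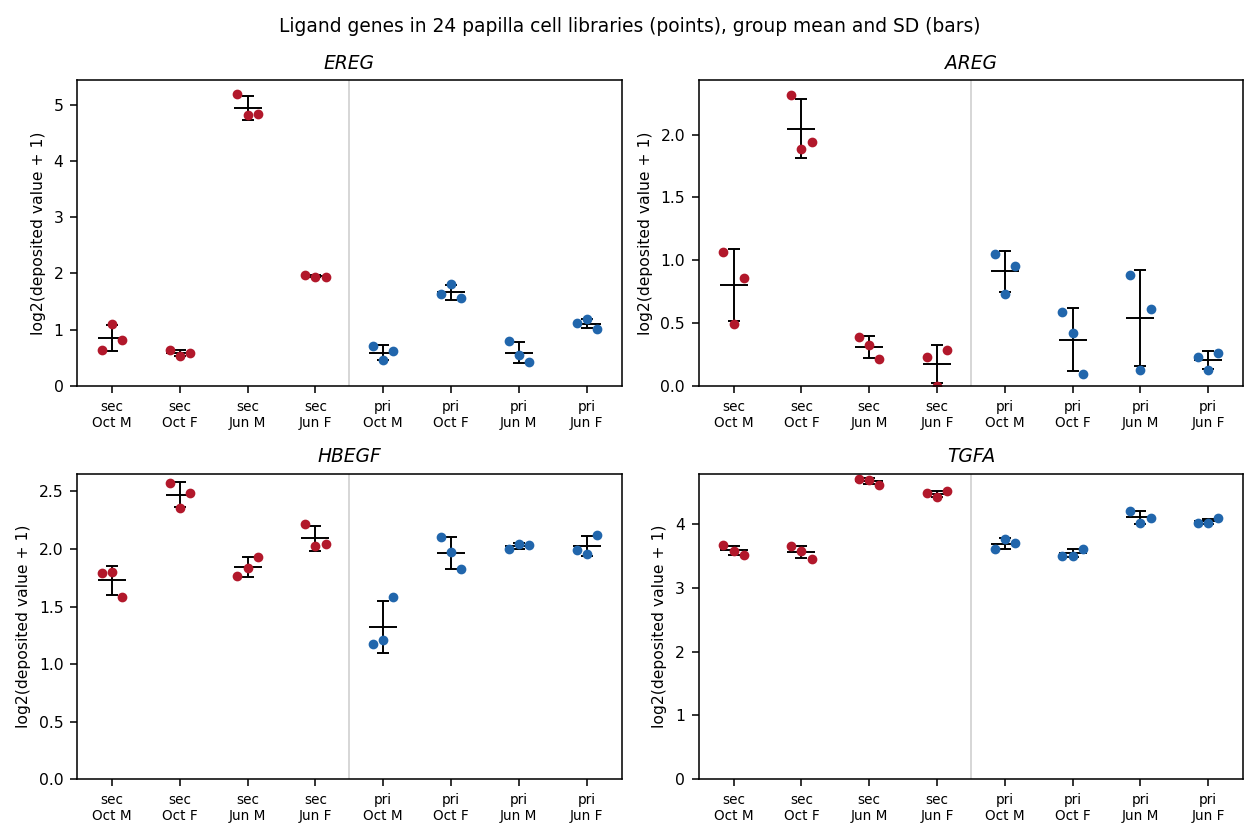
EREG, AREG, HBEGF and TGFA in each of the 24 libraries (points) as log2(deposited value + 1), with group mean and SD (bars, n = 3), secondary groups in red and primary groups in blue (sec, pri, Oct, Jun, M, F for secondary, primary, October, June, male, female). EREG peaks in secondary June males (mean 30.1 on the linear scale), AREG and HBEGF in secondary October females (means 3.17 and 4.56), and TGFA is above its October levels in all 4 June groups.

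AREG, which stands in a row with EPGN, EREG and BTC on the ARS1.2 goat assembly, had its high values in a different group. Secondary October females had 3.98, 2.69 and 2.84, against 0.50, 0.34 and 0.07 in primary October females. All other libraries lay between 0 and 1.09. Because only 2 libraries outside secondary October females reached a value of 1, AREG entered the test through that group and had to differ there. Its differences with that group are given as a description: 1.68 over primary October females (ratio of means 10.5), 1.88 over secondary June females (ratio 24.4), and -1.24 for secondary October males below secondary October females.

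Among the other groups AREG was at the low end of what the tables resolve. Secondary October males had 1.09, 0.41 and 0.81, against 0.31, 0.25 and 0.16 in secondary June males, a difference of 0.50 (adjusted p = 0.0159) that was not called without secondary October male 1 (0.37, adjusted p = 0.0974) or secondary June male 3 (0.45, adjusted p = 0.056). Primary October males had 1.07, 0.66 and 0.94, against 0.50, 0.34 and 0.07 in primary October females (0.54, adjusted p = 0.0155), and this call was lost without primary October male 1 (0.48, adjusted p = 0.0697) or primary October female 3 (0.41, adjusted p = 0.0913). Between secondary and primary cells AREG was not called in October males (-0.11, adjusted p = 0.727), June males (-0.23, adjusted p = 0.249) or June females (-0.0335, adjusted p = 0.889). Primary June males ranged from 0.09 to 0.84, and without primary June male 2 they were called above secondary June males (-0.44 for secondary against primary, adjusted p = 0.0282). Against primary June females, where the difference of 0.33 was not called (adjusted p = 0.112), they were called higher without primary June male 2 (0.54, adjusted p = 0.0117) and with the replicate number as a block (0.33, adjusted p = 0.0393). Males against females in secondary June cells (0.14, adjusted p = 0.555) and October against June in primary females (0.16, adjusted p = 0.447) were not called. October against June in primary males, not called at 0.37 (adjusted p = 0.0657), was called without primary June male 1 (0.54, adjusted p = 0.0131) or primary October male 2 (0.46, adjusted p = 0.0456), after rescaling to a common total (0.41, adjusted p = 0.0397), and with the replicate number as a block (0.37, adjusted p = 0.0186).

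Epithelial markers were highest in the same group as AREG. The 14 keratinocyte and hair matrix markers summed to 326 to 354 in secondary October females and 5.23 to 89.6 in the other groups. The basal keratin KRT5 stood at 186, 201 and 203 there, and DSG3, a desmosomal cadherin of the epidermis, stood at 2.66, 1.92 and 2.30. Of the 14, 11 were at 1 or more in every library of the group and none was at 0 in all of them. Their part in the AREG level was not tested.

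**Figure D2:**
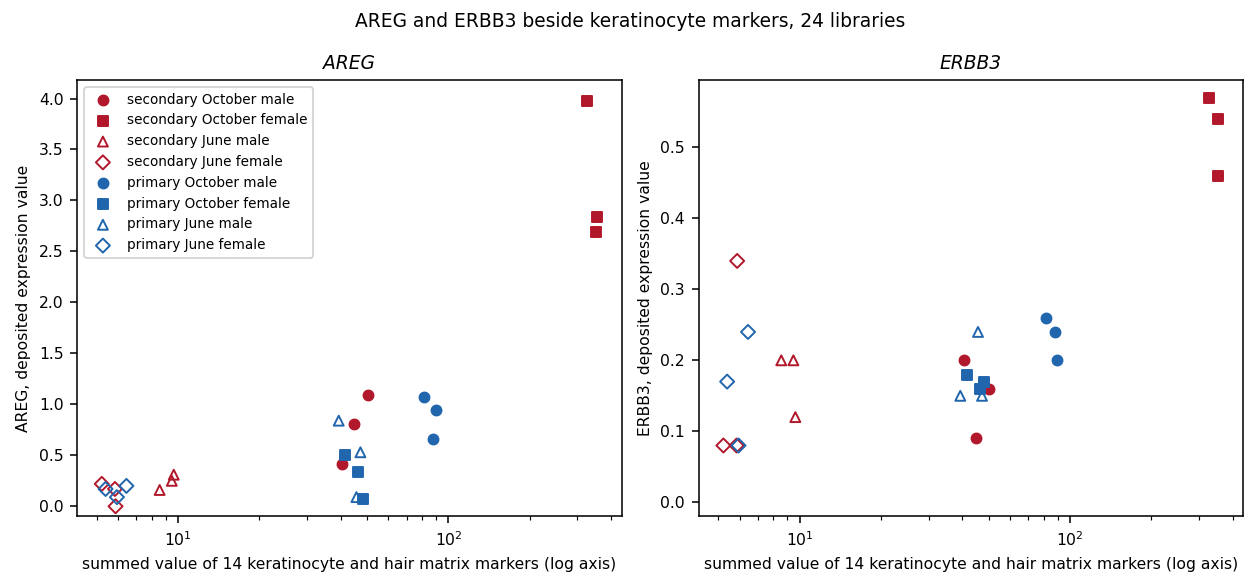
AREG (left) and ERBB3 (right), as deposited expression values, against the summed value of 14 keratinocyte and hair matrix markers on a log axis, 1 point per library, with marker shape and colour giving the group. The 3 libraries of secondary October females lie at the top right of both panels, at marker sums of 326 to 354.

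HBEGF was present in every library, between 1.26 and 4.95. Its highest group was also secondary October females, with 4.95, 4.13 and 4.59, against 3.29, 2.92 and 2.54 in primary October females (0.51, SE 0.10, adjusted p = 0.000359). Secondary October males had 2.46, 2.49 and 2.00, against 1.26, 1.31 and 1.99 in primary October males (0.40, SE 0.10, adjusted p = 0.0061). HBEGF was thus higher in secondary cells of both sexes in October, with no overlap between the groups of either pair. In males the groups nearly touched, at 2.00 in the lowest secondary and 1.99 in the highest primary library. That pair rests on the label of secondary October males. In June, secondary males had 2.39, 2.56 and 2.81, against 3.00, 3.13 and 3.09 in primary males (-0.19, adjusted p = 0.12), and secondary females had 3.64, 3.06 and 3.11, against 2.98, 2.88 and 3.35 in primary females (0.07, adjusted p = 0.604). The contrast of the follicle types was greater in October than in June by 0.59 in males (adjusted p = 0.00184) and by 0.44 in females (adjusted p = 0.0177), the second not being called without primary October female 3 (0.37, adjusted p = 0.053). From June to October HBEGF fell in primary males (-0.70, adjusted p = 3.45e-06), rose in secondary females (0.38, adjusted p = 0.00332) and was not called in secondary males (-0.11, adjusted p = 0.349) or primary females (-0.06, adjusted p = 0.663). October males were lower than October females in secondary cells (-0.75, adjusted p = 2.68e-06) and in primary cells (-0.64, adjusted p = 2.33e-05). In June the sexes were not called apart in secondary cells (-0.25, adjusted p = 0.0532) or primary cells (0.0028, adjusted p = 0.987), but in secondary cells they were with median-of-ratios factors (-0.26, adjusted p = 0.0443) and in a fit of those 2 groups alone (-0.25, adjusted p = 0.0386). Secondary October females were also the group with the high keratinocyte markers, whose part in the HBEGF level was not tested.

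TGFA followed the month in every group. Secondary October males had 11.66, 10.92 and 10.46, against 25.08, 24.86 and 23.38 in secondary June males, and secondary October females had 11.57, 10.90 and 9.94, against 21.39, 20.40 and 21.85 in secondary June females. Primary October males had 11.15, 12.62 and 11.93, against 17.46, 15.06 and 16.08 in primary June males, and primary October females had 10.32, 10.34 and 11.20, against 15.22, 15.12 and 15.97 in primary June females. No October library reached the lowest June library of its own type and sex. The fall was -1.08 and -0.91 in secondary males and females (adjusted p = 1.34e-12 and 4.14e-11) and -0.41 and -0.50 in primary males and females (adjusted p = 8.14e-06 and 8.41e-07).

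The fall of TGFA was deeper in secondary cells, by -0.67 in males (SE 0.09, adjusted p = 2.14e-06) and -0.41 in females (SE 0.09, adjusted p = 0.000772). In June secondary cells stood above primary cells, by 0.57 in males (ratio of means 1.51, adjusted p = 7.22e-08) and 0.43 in females (ratio 1.37, adjusted p = 5.74e-06). In October the groups of secondary and primary cells overlapped in both sexes, with -0.10 in males (adjusted p = 0.294) and 0.02 in females (adjusted p = 0.831). After rescaling to a common total the October difference in males was called (-0.18, adjusted p = 0.046). Between the sexes, secondary June males were above secondary June females by 0.20 (adjusted p = 0.0174), a call lost without secondary June female 2 (0.17, adjusted p = 0.0777), secondary June male 1 (0.18, adjusted p = 0.0589) or secondary June male 2 (0.18, adjusted p = 0.0583). Primary October males exceeded primary October females by 0.15 (adjusted p = 0.0734), which was called without primary October male 1 or primary October female 3 (0.19 in each case, adjusted p = 0.0436) and after rescaling to a common total (0.18, adjusted p = 0.034). No sex difference was called in secondary October cells (0.0266, adjusted p = 0.772) or primary June cells (0.0635, adjusted p = 0.434).

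NRG1 was close to absent. It did not exceed 0.21 in any library and was listed at 0 in 11 of the 24, among them all 9 libraries of secondary June males, secondary June females and primary June females. Its highest values were 0.21, 0.08 and 0.08 in primary June males and 0.10, 0.08 and 0.12 in primary October males. It was not tested.

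Of the receptors, EGFR moved with follicle type, month and sex. Secondary June males had 5.99, 5.79 and 5.15, against 9.31, 8.80 and 8.96 in primary June males, and secondary June females had 5.61, 5.77 and 5.85, against 16.90, 17.76 and 15.51 in primary June females. EGFR was thus lower in secondary cells of both sexes in June, the reverse of TGFA and EREG. The difference was -0.60 in males (SE 0.07, adjusted p = 9.80e-08) and -1.39 in females (SE 0.07, adjusted p = 7.66e-14), and it was smaller in males by 0.80 (adjusted p = 5.52e-07).

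In October EGFR was higher in males of both follicle types. Secondary October males had 15.15, 16.66 and 16.60, against 14.60, 14.61 and 14.40 in primary October males (0.14, adjusted p = 0.167). Secondary October females had 7.98, 6.82 and 6.99, against 7.73, 9.04 and 8.83 in primary October females (-0.21, adjusted p = 0.0209). The call in females was lost without secondary October female 2 or 3 or primary October female 2 or 3 (-0.17 to -0.18, adjusted p from 0.0718 to 0.0992) and in a fit of these 6 libraries alone (-0.21, adjusted p = 0.164). October males lay above October females without overlap in both types, by 1.05 in secondary cells (adjusted p = 1.61e-11) and 0.71 in primary cells (adjusted p = 1.60e-08). In June the males were lower in primary cells (-0.82, adjusted p = 9.01e-10), and in secondary cells the sexes overlapped (-0.02, adjusted p = 0.816). The difference of the follicle contrast between males and females in October, 0.35 (adjusted p = 0.00917), was not called after rescaling to a common total (0.27, adjusted p = 0.0671).

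From June to October EGFR rose in secondary males (1.37, ratio of means 2.86, adjusted p = 7.19e-14), in primary males (0.63, ratio 1.61, adjusted p = 5.02e-08) and in secondary females (0.29, ratio 1.26, adjusted p = 0.00111). It fell in primary females (-0.90, ratio 0.51, adjusted p = 2.54e-10). The shift of the follicle contrast between the months was 0.74 in males (adjusted p = 1.52e-06) and 1.19 in females (adjusted p = 1.02e-09). Ordered by mean, primary June females (16.7) and secondary October males (16.1) overlapped at the top, primary October males followed at 14.5, then primary June males (9.02), primary October females (8.53) and secondary October females (7.26), each overlapping the next, and secondary June females and males lay at 5.74 and 5.64.

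ERBB2 spanned little: its 24 values lay between 16.55 and 26.19 and its highest group mean was 1.31 times its lowest. No call was made between secondary and primary cells in either month or sex, the differences being 0.08 and -0.11 in October males and females and -0.10 and -0.00131 in June males and females, with 95% intervals that lay within -0.26 and 0.24 throughout. October cells were lower than June cells in secondary females (-0.28, adjusted p = 0.00283) and in primary males (-0.30, adjusted p = 0.00123). The October groups were also lower in secondary males (-0.11, adjusted p = 0.197) and primary females (-0.16, adjusted p = 0.0623), without a call. After rescaling to a common total the difference in secondary males was called (-0.19, adjusted p = 0.022). Males and females differed in no type or month by a called amount, with -0.00615 in secondary June cells, 0.0954 in primary June cells and -0.038 in primary October cells, although secondary October males and females (0.16, adjusted p = 0.083) were called apart without secondary October female 2 (0.22, adjusted p = 0.0307).

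ERBB3 lay below 0.6 everywhere and was not tested. Secondary October females had 0.57, 0.46 and 0.54, against 0.18, 0.16 and 0.17 in primary October females, and the remaining libraries lay between 0.08 and 0.34. These 3 libraries are the ones with the high keratinocyte markers given above. The 8 melanocyte markers summed to 11.2 to 12.8 in secondary October females and 9.67 to 14.5 in the other groups, the 6 Schwann cell markers to 49.9 to 51.0 and 34.8 to 77.0, and SOX10, the defining gene of both, was at 0.13, 0.02 and 0.05, the first of these being its highest value in any library. The part of these cell types in the ERBB3 level was not tested.

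ERRFI1 had its highest values in primary June females, with 221.85, 221.42 and 219.98. Secondary June females had 115.52, 113.99 and 115.76, and the difference between secondary and primary June females was -0.94 (SE 0.04, adjusted p = 1.85e-14). All other groups lay between 101.73 and 140.18. Secondary June males had 132.33, 135.30 and 136.94, against 105.73, 115.19 and 118.90 in primary June males (0.25, adjusted p = 2.18e-05), so that the follicle contrast ran opposite ways in the sexes and differed by 1.19 (SE 0.06, adjusted p = 2.22e-13). In October it ran opposite ways again, with the signs exchanged. Secondary October males had 122.39, 126.88 and 127.06, against 133.64, 138.06 and 140.18 in primary October males (-0.13, adjusted p = 0.0347), and secondary October females had 121.51, 124.58 and 116.12, against 106.17, 101.73 and 109.63 in primary October females (0.19, adjusted p = 0.0011). The 2 sexes differed by -0.32 (adjusted p = 0.000277). The call in October males was lost without secondary October male 1, 2 or 3 or primary October male 2 or 3 (-0.11 to -0.14, adjusted p from 0.0564 to 0.134), and the call in October females was lost in a fit of these 6 libraries alone (0.19, adjusted p = 0.0762).

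From June to October ERRFI1 fell in primary females by 1.06 on the log2 scale (ratio of means 0.479, adjusted p = 2.68e-15) and rose in primary males (0.28, adjusted p = 7.40e-06). In secondary females it was 0.07 (adjusted p = 0.185). In secondary males it was -0.10 (adjusted p = 0.04), a call lost without secondary October male 1, 2 or 3 or secondary June male 2 or 3 (-0.09 to -0.11, adjusted p from 0.0542 to 0.133), with median-of-ratios factors (-0.08, adjusted p = 0.122) and in a fit of the 2 groups alone (-0.10, adjusted p = 0.0618). Males were lower than females in primary June cells (-0.96, adjusted p = 9.98e-15) and higher in primary October cells (0.37, adjusted p = 2.11e-07) and secondary June cells (0.23, adjusted p = 0.000163), and were not called apart in secondary October cells (0.0551, adjusted p = 0.315). The month shift of the follicle contrast was -0.38 in males (adjusted p = 1.67e-05) and 1.12 in females (adjusted p = 6.90e-13). Primary June females were thus the top group of both EGFR and ERRFI1. In primary June females the 14 keratinocyte markers summed to 5.4 to 6.45, against 5.23 to 354 in the other groups, and the 15 papilla markers to 775 to 824, against 557 to 807. The 7 fibroblast markers summed to 25940 to 28130 there, against 18230 to 24750 in the other groups. Their part in the ERRFI1 and EGFR levels was not tested.

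**Figure D3:**
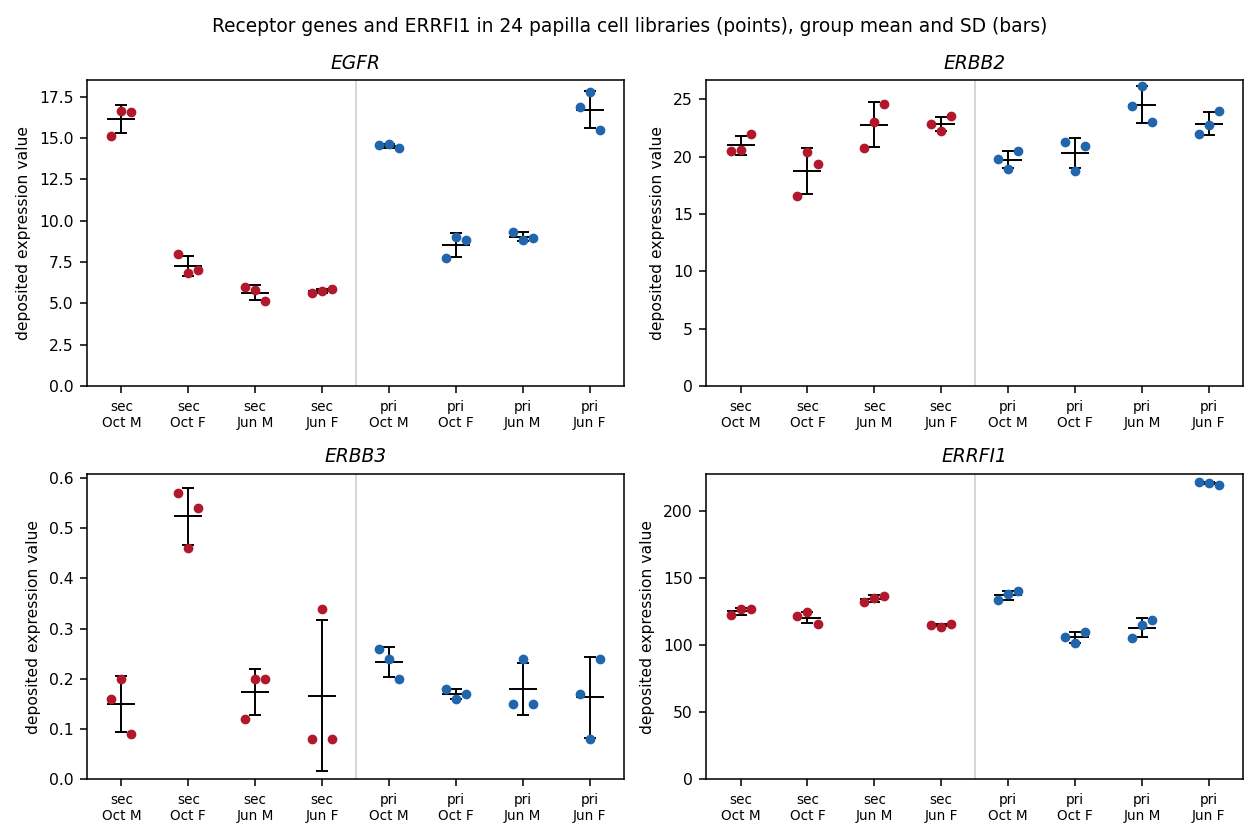
EGFR, ERBB2, ERBB3 and ERRFI1 in each of the 24 libraries (points) as deposited expression values, with group mean and SD (bars, n = 3), each panel starting at 0, secondary groups in red and primary groups in blue (sec, pri, Oct, Jun, M, F for secondary, primary, October, June, male, female). ERRFI1 stands at 220 to 222 in primary June females and 102 to 140 elsewhere, and ERBB2 stays between 16.55 and 26.19.

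Calls were frequent among all genes, and counts over the 7 tested members are set beside that background. Between secondary and primary cells, 2 members were called in October males, where 18.5% of all tested genes were called. They were 1 higher and 1 lower, against 10.9% and 7.63% of all genes. After rescaling to a common total these shares of all genes turned round, to 5.69% higher and 15.5% lower, with 1 member higher and 2 lower. In October females 5 were called, or 4 without AREG, which had to differ there (35.5% of all genes). The 5 were 3 higher and 2 lower (18.3% and 17.2%), AREG among the higher ones. In June males 4 were called (59.6%), 3 higher and 1 lower (30.7% and 28.9%), and in June females 4 (49.3%), 2 higher and 2 lower (25% and 24.3%). Rescaling gave 38.8% higher and 21.6% lower among all genes in June males and moved the split of calls by under 1 percentage point in females of either month. The median difference of the 7 members was 0.08 and 0.02 in October males and females and -0.10 and -0.00131 in June males and females, against 0.00641, 0.00331, 0.00914 and 0.00272 over all tested genes. A difference of 2-fold or more with a call was found for 0 members in October males (0.659% of all genes) and 2 in October females (3.08%). Those 2 were EREG and AREG, of which AREG had to differ there. In June such a difference was found for 1 member in males (EREG, 7.35%) and 1 in females (EGFR, 4.27%). The count of 2 in October males dropped to 1 without any 1 of secondary October male 1, 2 or 3 or primary October male 2 or 3, through the loss of ERRFI1.

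October against June called 5 members in secondary males (56.5% of all genes), 2 higher and 3 lower (25.3% and 31.2%). In secondary females it called 6, or 5 without AREG (51.3%). The 6 were 3 higher and 3 lower (24.2% and 27.1%), again with AREG among the higher ones. In primary males 5 were called (55.5%), 2 higher and 3 lower (26% and 29.5%), and in primary females 4 (48.2%), 1 higher and 3 lower (22.7% and 25.6%). Rescaling gave 17.8% higher and 38.9% lower among all genes in secondary males, and 35.3% and 22.7% in primary males. The count in secondary males dropped to 3 without secondary June male 3 or secondary October male 1. Males against females called 3 members in secondary October cells, or 2 without AREG (40.4% of all genes). The 3 were 1 higher and 2 lower (19.5% and 20.9%), AREG among the lower ones. In secondary June cells 3 were called (39.5%), all higher (20.9% higher and 18.6% lower among all genes). In primary October cells 5 were called (33.6%), 3 higher and 2 lower (15.8% and 17.8%), and in primary June cells 3 (45.4%), all lower (23.1% higher and 22.3% lower among all genes). Rescaling gave 15% higher and 26.3% lower among all genes in secondary October cells, and 27.3% and 13.2% in secondary June cells. The follicle contrast differed between the sexes for 3 members in October (26.7% of all genes) and 3 in June (41.2%), and between the months for 5 in males (43.9%) and 5 in females (40.2%). AREG is left out of the counts of these contrast differences, since its October and female terms hold the group through which it entered the test.

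**Figure D4:**
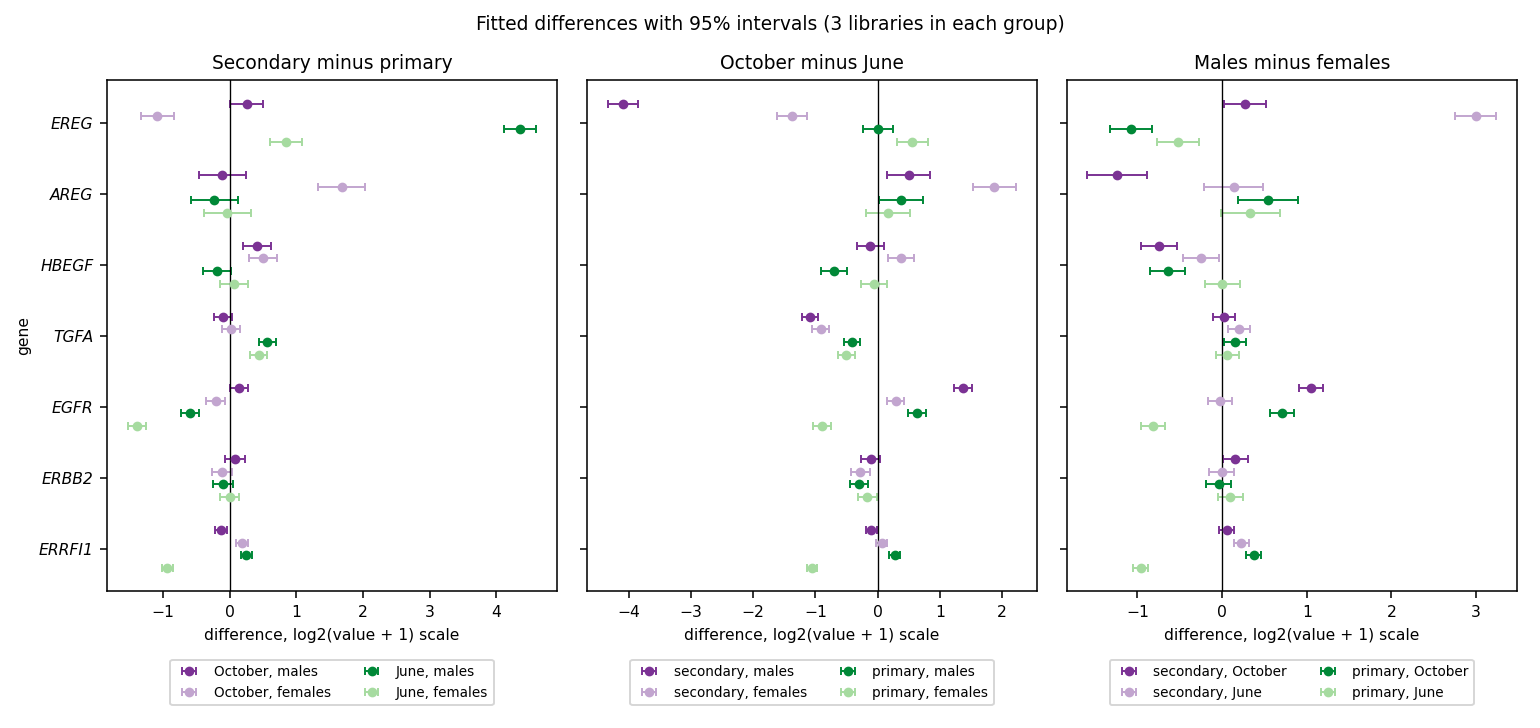
Fitted differences of the 7 tested members on the log2(value + 1) scale with 95% intervals (limma, 3 libraries in each group), for secondary minus primary cells, October minus June, and males minus females, 4 comparisons in each panel by colour. EREG in June males (4.36, left panel) and EREG in secondary males (-4.10, middle panel) lie far from the other values, and ERBB2 stays between -0.30 and 0.16 in all panels.

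The rest of the family was measured at low levels. Of 7 other ligands and receptors, only BTC (betacellulin, a ligand of EGFR and ERBB4) was tested. BTC lay between 2.55 and 4.64 and was lower in secondary than in primary June females by -0.31 (adjusted p = 0.0299), a call lost without secondary June female 2 or 3 or primary June female 1 or 2 (-0.21 to -0.32, adjusted p from 0.0616 to 0.183). In June males it was -0.22 (adjusted p = 0.106), in October males -0.29 (adjusted p = 0.087; called without primary October male 3, at -0.40 with adjusted p = 0.0356, and after rescaling to a common total, at -0.36 with adjusted p = 0.0389) and in October females 0.09 (adjusted p = 0.601). EGF itself did not exceed 0.09 in any library, EPGN (epigen) 0.69, NRG4 0.98, NRG3 0.21, NRG2 0.09 and the receptor ERBB4 0.12.

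Of 6 genes that act on the release of the ligands, 1 was called in October males, 5 in October females, 3 in June males and 5 in June females, all of them lower (against 7.63%, 17.2%, 28.9% and 24.3% of all tested genes called lower). The medians were -0.11, -0.63, -0.23 and -0.35. The list holds activators and an inhibitor. TIMP3, a metalloproteinase inhibitor that can block the ligand-cutting enzyme ADAM17, differed by -1.35 in October females (adjusted p = 5.96e-17), -0.30 in October males (adjusted p = 1.60e-05), -0.96 in June males (adjusted p = 8.52e-15) and -0.39 in June females (adjusted p = 7.98e-08). RHBDL2, a membrane protease that can cut EGF precursors, was at 0.98, 0.99 and 1.13 in secondary June females, against 6.93, 6.41 and 8.24 in primary June females (-2.01, adjusted p = 6.47e-12), and differed by -0.84 in October females (adjusted p = 1.03e-05). ADAM10, another ligand-cutting enzyme, was lower in June males (-0.51, adjusted p = 5.42e-07). ADAM17 itself, which falls outside the rule for named genes, ranged from 40.8 to 59.9 over the 24 libraries.

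The 20 genes that relay the signal inside the cell were called mostly lower in secondary cells in June, 9 lower and 2 higher in males (28.9% and 30.7% of all genes) and 10 lower and 1 higher in females (24.3% and 25%). In October, 1 was higher and 1 lower in males (10.9% and 7.63%), and 2 were higher and 1 lower in females (18.3% and 17.2%). The medians were 0.03 and -0.02 in October males and females and -0.11 and -0.16 in June males and females. In June males the adaptor SHC1 (-0.41) and the GTPase HRAS (-0.43) were lower, and in June females PIK3R1, the regulatory subunit of PI3 kinase (-0.71), and the transcription factor STAT3 (-0.39). In October males PIK3R1 was lower (-0.39) and the adaptor SHC2 higher, with 9.24, 7.48 and 8.69 in secondary cells, against 4.60, 3.12 and 3.67 in primary cells (0.99, adjusted p = 1.12e-06). In October females the phospholipase PLCG1 (0.38) and the exchange factor SOS1 (0.28, adjusted p = 0.0114) were higher, SOS1 not without primary October female 1 or 3 (0.22 in each case, adjusted p = 0.0663 and 0.067).

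Receptor turnover and feedback inhibitors, 19 tested genes, had 1 called higher and 1 lower in October males (10.9% and 7.63% of all genes), or 1 and 6 after rescaling to a common total. In October females 5 were higher and 3 lower (18.3% and 17.2%). In June 7 were called higher and 7 lower in males (30.7% and 28.9%), and 1 and 8 in females (25% and 24.3%). DUSP6, a phosphatase that switches ERK off, was higher in secondary cells in October males (0.25, adjusted p = 0.000894), October females (0.49, adjusted p = 5.50e-08) and June males, where secondary cells had 43.64, 44.84 and 45.02, against 17.99, 18.91 and 20.41 in primary cells (1.18, adjusted p = 4.33e-15). DUSP5, a nuclear ERK phosphatase, had 18.77, 17.70 and 17.72 in secondary June males, against 6.50, 6.54 and 6.86 in primary June males (1.32, adjusted p = 1.06e-10). In June females SPRY1, a Sprouty inhibitor of receptor signalling, was at 2.94, 2.58 and 2.77 in secondary cells, against 7.79, 7.10 and 7.05 in primary cells (-1.14, adjusted p = 1.10e-11), and the phosphatase DUSP4 was lower as well (-0.67). LRIG3, of a family of receptor regulators, was lower in October males (-0.26), and SOCS5, an adaptor for receptor breakdown, in October females (-0.88).

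Response genes of the ERK pathway, 19 tested, were called in most comparisons. Whether these genes or those of the relay and feedback lists follow the EGF receptor was not tested. Secondary October females had the high keratinocyte markers given above. In secondary June males the summed leukocyte, endothelial and papilla markers stood apart. The part of these cell types in the lists was not tested. In October males 9 were higher and 2 lower (10.9% and 7.63% of all genes), or 5 and 3 after rescaling to a common total. In October females 13 were higher and 3 lower (18.3% and 17.2%). In June 9 were higher and 4 lower in males (30.7% and 28.9%), and 5 and 8 in females (25% and 24.3%). The medians were 0.09 and 0.46 in October males and females and 0.03 and -0.11 in June males and females. The largest difference was that of MMP3, a matrix metalloproteinase, with 22.86, 19.66 and 21.19 in secondary June males, against 0.20, 0.19 and 0.14 in primary June males (4.24, adjusted p = 7.21e-18). FOSL1, an AP-1 transcription factor, had 73.10, 77.15 and 76.62 in secondary June males, against 14.80, 15.19 and 16.39 in primary June males (2.22, adjusted p = 4.32e-19). In June females the prostaglandin synthase PTGS2 (-2.16) and the AP-1 factor FOS (-1.80) were lower in secondary cells. In October FOS was higher in females, with 144.74, 146.45 and 146.27 in secondary cells, against 50.69, 46.87 and 47.56 in primary cells (1.57, adjusted p = 2.73e-18), as was the collagenase MMP1 (1.17). In October males PTGS2 (0.73) and the neuropeptide precursor VGF (0.51) were higher. Over the 20 ERK response genes listed, the summed value was 1719 to 1774 in secondary June males and 2574 to 2637 in primary June females, the highest group.

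**Figure D5:**
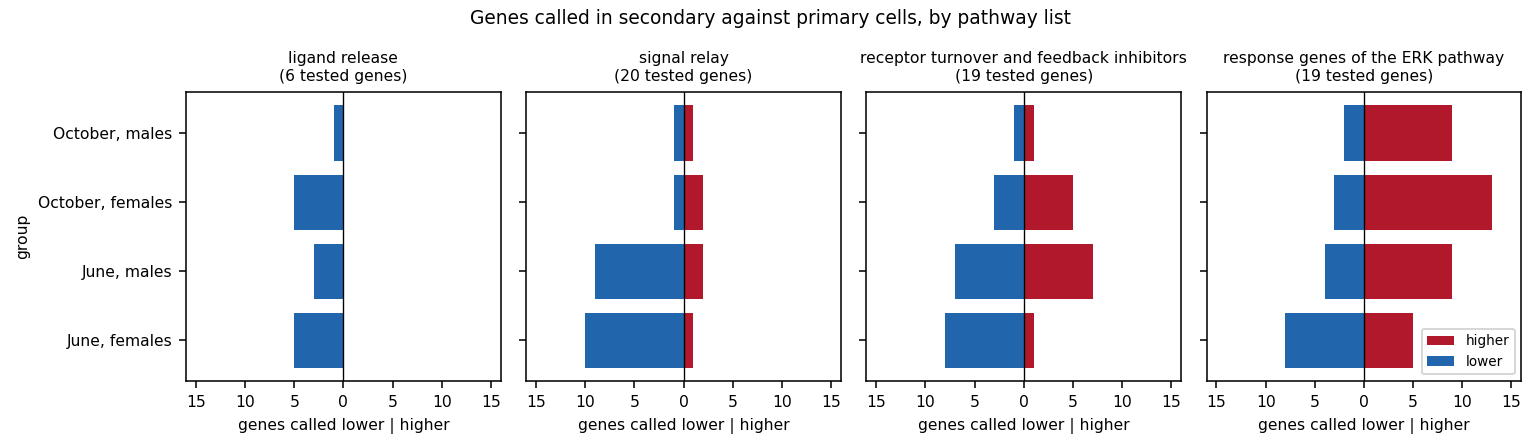
Number of genes called higher (red, right) or lower (blue, left) in secondary than in primary cells (limma, adjusted p under 0.05), with 1 bar for each month and sex. The 4 lists are ligand release, signal relay, receptor turnover and feedback, and ERK response, and their dependence on the EGF receptor was not tested. The ligand release genes are all on the lower side, with 1, 5, 3 and 5 of 6 from top to bottom, and the ERK response genes reach 13 of 19 on the higher side in October females.

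The genes whose level ran most like each member were sought over the 24 libraries by Pearson's r of the log2 values, among 2364 genes whose group means spanned at least 1. The libraries of a group are not independent conditions, so r mostly reflects the 8 group means. EREG was closest to RSAD2 (0.959), LAX1 (0.95) and TSPOAP1 (0.948), all highest in secondary June males. AREG was closest to DSG3 (0.934), one of the 14 keratinocyte markers, and GJB6 also ran close to it (0.919), both highest in secondary October females, as were the genes closest to HBEGF, FAM122B (0.897), TRPS1 (0.888) and MTUS1 (0.862). TGFA was closest to GCLC (0.958), CPXM1 (0.953) and CXCL8 (0.953), which peaked in secondary June males. EGFR was closest to SNED1 (0.93) and S100A13 (0.929), both highest in secondary October males, and PXDN (0.923), highest in primary June females. ERRFI1 was closest to CSRNP1 (0.967), RARRES1 (0.966) and GPBAR1 (0.963), all highest in primary June females.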

How the data were processed

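RNA was taken up in RNAiso Plus and sequenced from NEBNext Ultra paired-end libraries, per the labels' protocols. The submitters' processing notes name kallisto 0.46.1 and sleuth 0.30.0 without saying what each did. Nothing is stated on build, transcript set, filters or depth in the sources used here. The signal deposited by the authors is a normalised value per gene and library, rounded to 2 decimals, and no count. Genes were tested if 3 libraries or more had 1 or above. A linear model of log2(value + 1), with 8 group means, was fitted to all 24 libraries together in limma 3.58.1 under R 4.3.3, with trend and robust options (statmod 1.5.0). There were 12 comparisons of 2 groups and 4 interactions, with Benjamini-Hochberg adjustment over the 13049 tested genes of each. The fit was also run on simulated data, with independent libraries and changes set in a small part of the genes, in a single group. The changed genes were not those at low values, and libraries that are technical replicates were not simulated. Nothing on the members is drawn from that run. Gene IDs were looked up in the table of assembly ARS1.2 for names and neighbours (20294 of 20326 matched).

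All tested members are given in every comparison of 2 groups. Of the other pathway genes, those named are the 2 largest called differences per list in each comparison of follicle type, with every gene of a list of 5 or fewer tested genes. The members and lists were chosen with earlier results of these data known, so their counts and medians are descriptions without a test of the list. The replicate numbers were not used as pairs in the main fit. In no comparison of 2 groups did all 3 same-numbered pairs have residuals that correlated above 0.1. In secondary against primary June females 2 of 3 did, and all 6 libraries correlated best with their own number. For the months in primary females and the sexes in primary October cells 2 of 3 did as well, so some pairing is not excluded. The result of 1 gene that the rule for like patterns names is not reported here.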

Additional observations from a re-analysis of the deposited data

Results flagged for a closer look

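The follicle contrast (secondary minus primary cells) of 5 members differed between sexes or between months by an interaction term in limma (Benjamini-Hochberg adjusted p under 0.05), 3 libraries in each of the 4 groups of a term. In June, males minus females, EREG was flagged at 3.52 (adjusted p = 8.74e-14), EGFR at 0.80 (adjusted p = 5.52e-07) and ERRFI1 at 1.19 (adjusted p = 2.22e-13). In October the same difference was 1.34 for EREG (adjusted p = 1.40e-06), 0.35 for EGFR (adjusted p = 0.00917) and -0.32 for ERRFI1 (adjusted p = 0.000277). For October minus June in males, it was -4.10 for EREG (adjusted p = 7.64e-15), 0.59 for HBEGF (adjusted p = 0.00184), -0.67 for TGFA (adjusted p = 2.14e-06), 0.74 for EGFR (adjusted p = 1.52e-06) and -0.38 for ERRFI1 (adjusted p = 1.67e-05). For October minus June in females, it was -1.93 for EREG (adjusted p = 2.90e-09), 0.44 for HBEGF (adjusted p = 0.0177), -0.41 for TGFA (adjusted p = 0.000772), 1.19 for EGFR (adjusted p = 1.02e-09) and 1.12 for ERRFI1 (adjusted p = 6.90e-13). ERRFI1 is the one of these genes whose contrast had called differences of opposite sign in males and females in both months. Its October calls were not stable. The call in males was lost in 5 of 6 fits with a library left out, and that in females in a fit of the compared groups alone. The October terms and the male month terms hold secondary October males, whose SOX2 was within the range of primary cells, and rest on that label. Groups of 3 libraries are too small for a search for single deviating libraries.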

How the results depend on the processing

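Alternatives were rescaling to a common total, median-of-ratios factors, a pseudocount of 0.1, no filter, a filter of 1 in 6 libraries, an ordinary spread estimate, the compared groups alone, the replicate number as a block, and each library left out in turn. In the fit of the compared groups alone, October secondary against primary females gave 3 called members and 2796 genes in all, against 5 and 4628; fewer libraries then estimate the spread. Leaving out libraries, the members called ranged from 1 to 2 for the follicle types in October males and from 3 to 5 for the months in secondary males. Signs changed only for uncalled differences near 0. After rescaling these were, for males against females, EGFR 0.027 and ERBB2 0.0506 in secondary June cells, TGFA -0.0232 in secondary October cells and HBEGF -0.0251 in primary June cells. Rescaling moved the median of all genes by over 0.1 in 1 comparison, the month shift of the follicle contrast in males (to -0.17, against -0.00922). It moved the share of calls that were higher by over 10 percentage points in 9 of 16 comparisons, among them the sex difference of the follicle contrast in October (9.46% higher and 18.5% lower of all genes) and in June (28.2% and 13.6%) and its month shift in males (11.9% and 37.8%); median-of-ratios factors did so in 0. With libraries left out, secondary against primary ranged from -0.0914 to 0.0521 for AREG and -0.0301 to 0.0305 for ERBB2 in June females, -0.24 to 0.0475 for AREG in October males and -0.0254 to 0.0748 for TGFA in October females. Males against females ranged from -0.0608 to 0.0576 for ERBB2 and -0.0613 to 0.0311 for EGFR in secondary June cells, -0.0308 to 0.0517 for HBEGF in primary June cells and -0.0271 to 0.0731 for TGFA in secondary October cells. October against June ranged from -0.0744 to 0.10 for EREG in primary males and -0.13 to 0.0126 for HBEGF in primary females, the month shift of AREG in males from -0.0468 to 0.33, and the October sex difference of the follicle contrast of HBEGF from -0.17 to 0.0278. The filter of 1 in 6 libraries removed AREG from the test.

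The replicate number as a block moved counts of called genes by 1.02 to 1.06 times (2562 to 7911 genes, against 2412 to 7779), and all 6 libraries correlated best with their own number in 1 of 12 comparisons. Depth is unknown, so values under 1, such as those of NRG1, ERBB3 and most AREG libraries, have no stated precision beyond the spread of 3 libraries. The same holds for the low groups of EREG, which reached 1 in 13 of the 24 libraries.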
